A study of Mus musculus with 21 samples.

Results

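The difference between DTR+ and DTR- mice, a contrast meant to show regulatory T cell loss, was compared between CTx and xINJ muscle at day 8. The xINJ difference was subtracted from the CTx difference for 13515 genes in 11 of the series' 21 samples. The samples were whole tibialis anterior, a muscle of the shin, from male C57BL/6 mice aged 8 weeks. DTR+ mice carried a receptor for diphtheria toxin under the control of Foxp3, so that the toxin is meant to kill cells expressing Foxp3, and DTR- mice lacked it. Both genotypes received cardiotoxin, a snake venom peptide that destroys muscle fibres, at day 0, and both received diphtheria toxin on alternate days until dissection, so every group shares the toxin. CTx and xINJ are the names of 2 kinds of muscle in the titles. The other labels describe both as cardiotoxin-injured, so what xINJ stands for is not known here and the word is used as a group name. The 4 groups were DTR- xINJ (3 samples), DTR+ xINJ (2 samples), DTR- CTx (3 samples) and DTR+ CTx (3 samples), all from day 8. The labels do not state that samples of a group, or muscles of the same number, are from different animals, and each p-value therefore reflects no more than how far these samples scatter, which could be technical variation.

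Regulatory T cells hold back effector T cells through surface receptors and cytokines, and in injured muscle they are also known to act on macrophages and on muscle stem cells. Interferon gamma, made by T cells and natural killer cells, induces GTPases, chemokines and the machinery of antigen presentation in nearly every cell type, whereas type I interferons induce antiviral genes such as the Ifit family, with many targets in common. Interleukin 4 and interleukin 13, the type 2 cytokines, induce a different set in macrophages, including Arg1, Chil3, Retnla, Pdcd1lg2 and the eosinophil-attracting chemokine Ccl24.

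Levels are log2 intensities of 1 probe set per gene. A genotype effect is the DTR+ mean minus the DTR- mean within a kind of muscle, and the difference of effects is the CTx effect minus the xINJ effect, so 1 unit is a doubling of the ratio between the ratios. A gene is said to be called, and to have risen or fallen, when its limma p-value after Benjamini-Hochberg adjustment over all tested genes was under 0.05. The CTx and xINJ effects share no sample.

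The muscles of both names differed in marker genes. Myh3, the embryonic myosin of new fibres, lay between 6.37 and 7.29 in the 5 xINJ samples and between 10.20 and 11.01 in the 6 CTx samples, and Adgre1, which encodes the macrophage marker F4/80, between 6.42 and 7.43 and between 8.95 and 9.93 in the same order. The labels that call xINJ muscle cardiotoxin-injured thus stand beside low levels of both genes there. The log2 profile of the series' single day 0 sample correlated at 0.966 to 0.981 with DTR- xINJ, 0.944 and 0.946 with DTR+ xINJ, 0.944 to 0.951 with DTR- CTx and 0.873 to 0.903 with DTR+ CTx samples. Foxp3, the transcription factor that defines the targeted cells, lay between 6.32 and 6.95 in the 11 samples, near the level at which genes were left out, with effects of -0.18 in CTx and -0.06 in xINJ muscle, so its loss could not be followed. In whole muscle, fewer cells of a type and less RNA per cell cannot be told apart.

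The difference of effects was called for 31 of 13515 genes (0.229%), 14 of them above 0 (0.104%) and 17 below 0 (0.126%), and 875 had an unadjusted p under 0.05. Against this, the genotype effect was called for 491 genes (3.63%) in CTx muscle, 404 higher (2.99%) and 87 lower (0.644%) in DTR+ mice. In xINJ muscle it was called for 346 genes (2.56%), 239 higher (1.77%) and 107 lower (0.792%). That split was 211 higher and 222 lower without DTR- xINJ replicate 2, 77 and 13 without DTR+ xINJ replicate 1, 121 and 32 without DTR+ xINJ replicate 2, 148 and 29 without DTR- xINJ replicate 1, and 111 and 20 without DTR- xINJ replicate 3. Without DTR+ CTx replicate 1 the differences were 22 above 0 and 7 below 0. The mean of both effects was called for 900 genes (6.66%), 551 higher (4.08%) and 349 lower (2.58%). Centring each array on its median gave 12 differences above 0 and 27 below 0, or 30.8% above 0 in place of 45.2%.

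Most effects had the same direction in both muscles. Across genes, which are not independent replicates, the CTx and xINJ effects had a Pearson r of 0.52, and 447 of the 491 genes called in CTx muscle (91.0%) had the same sign in xINJ muscle, against 62.5% of all tested genes. Being called in one muscle and not in the other seldom went with a called difference. Of the 390 genes called in CTx and not in xINJ muscle, 12 had one, and of the 245 called in xINJ and not in CTx muscle, 18 had one. No gene was called in both muscles with opposite signs. The 31 genes fell into few patterns. Among the 14 above 0, 11 were called in CTx muscle alone, 2 in xINJ muscle alone and 1 in both. Of the 17 below 0, 16 were called in xINJ muscle alone, all of them higher in DTR+ mice, and 1 in CTx muscle alone.

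**Figure D1:**
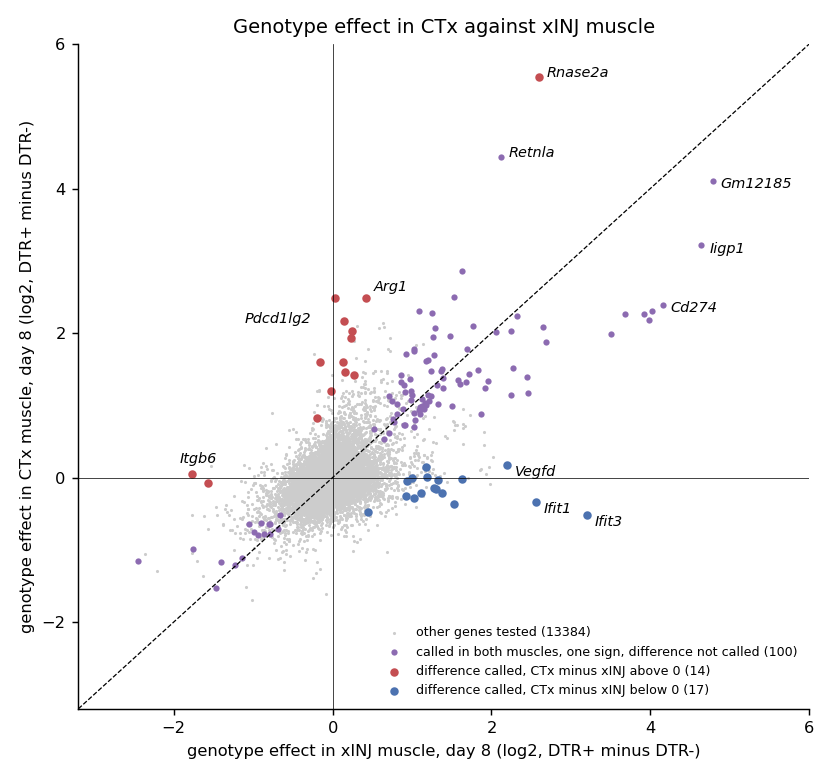
Genotype effect at day 8 (DTR+ minus DTR-, log2) in CTx muscle on the y axis against xINJ muscle on the x axis, 1 point per tested gene, with the dashed line marking equal effects. The 100 genes called in both muscles with no called difference (purple) run along the line, the 14 with a difference above 0 (red) lie above it and the 17 with a difference below 0 (blue) lie below it near a CTx effect of 0.

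The genes that rose in DTR+ CTx muscle beyond any rise in xINJ muscle included Arg1 and Chil3, known from alternatively activated macrophages, an eosinophil ribonuclease and a dendritic cell integrin. Pdcd1lg2, which encodes PD-L2, an inhibitory ligand of the T cell receptor PD-1, had 5.72, 5.52 and 5.59 in DTR- xINJ, 5.87 and 5.64 in DTR+ xINJ, 5.80, 5.51 and 5.76 in DTR- CTx and 8.00, 7.58 and 7.99 in DTR+ CTx muscle. The 3 DTR+ CTx samples stood above the other 8, which overlapped. Within CTx muscle, genotypes were apart, in either direction, for 20.7% of all tested genes. The difference of effects was 2.01 ± 0.21 (SE, limma adjusted p = 0.000122), the smallest adjusted p of all genes. Col6a5, a chain of type VI collagen, lay between 6.79 and 7.54 in the other 8 samples and at 9.25, 8.98 and 8.78 in DTR+ CTx muscle, with a difference of 1.78 ± 0.26 (limma adjusted p = 0.00331). Itgax, which encodes CD11c of dendritic cells and some macrophages, had 6.45, 6.52 and 6.21, then 6.52 and 6.72 in the xINJ groups, and 7.72, 7.47 and 7.49, then 9.40, 9.84 and 9.22 in the CTx groups. It was thus already higher in DTR- CTx than in DTR- xINJ muscle (1.17, limma adjusted p = 0.00028) and rose by a further 1.93 in DTR+ CTx muscle, and its difference of effects was 1.70 ± 0.28 (limma adjusted p = 0.0136).

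Among the type 2 genes, Rnase2a, an eosinophil-associated ribonuclease, was the one gene called in both muscles and in the difference. It had 4.29, 4.51 and 4.62 in DTR- xINJ, 6.66 and 7.49 in DTR+ xINJ, 4.18, 4.72 and 4.28 in DTR- CTx and 10.83, 10 and 9 in DTR+ CTx muscle. No genotype groups overlapped in either muscle. Genotypes were apart, in either direction, for 20.7% of all tested genes in CTx and 29.8% in xINJ muscle. The difference was 2.95 ± 0.53 (limma adjusted p = 0.0232). Its relatives are near-identical in sequence and the probes may not separate them. Arg1, the enzyme arginase 1, had 9.06, 8.08 and 7.57 in DTR+ CTx muscle against 5.61 to 6.27 in the other 8 samples, a difference of 2.07 ± 0.38 (limma adjusted p = 0.0262). Chil3, a secreted chitinase-like protein also called Ym1, had 8.14, 7.19 and 6.60 against 4.68 to 5.15, a difference of 2.45 ± 0.44 (limma adjusted p = 0.0242). Ccl24 had 7.6, 7.29 and 7.39 against 5.80 to 6.48, a difference of 1.15 ± 0.20 (limma adjusted p = 0.0189). Of the 31 genes, 7 (Pdcd1lg2, Rnase2a, Arg1, Chil3, Ccl24, Apol7c and A730020M07Rik) passed the filter on dim genes through the DTR+ CTx day 8 samples alone and Catsper4 through the DTR+ xINJ samples alone, so that those samples are the high ones was required by the filter. With no filter, 29 of the 31 were called. Retnla, which encodes the type 2 product RELM alpha, rose in both muscles (4.44 in CTx and 2.12 in xINJ), and its difference of 2.32 was not called (95% interval 1.10 to 3.54, limma adjusted p = 0.138).

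The remaining 5 genes with this pattern were F10, coagulation factor X (difference 1.47), Apol7c of the apolipoprotein L family (1.75), Tarm1, an activating receptor of myeloid cells (1.30), Otud1, a deubiquitinase (1.22), and the uncharacterised A730020M07Rik (1.02). Their limma adjusted p lay between 0.0189 and 0.0482. Folds of dim genes are lower bounds. In 8 of the 31 genes every DTR- CTx sample lay below the 40th percentile of its array, a cut for testing and not a limit of detection, and against that level the CTx rise was at least 9.75-fold for Rnase2a, 2.99-fold for Arg1, 2.46-fold for F10, 2.29-fold for Pdcd1lg2, 1.74-fold for Apol7c, 1.70-fold for Ccl24, 1.57-fold for Chil3 and 1.35-fold for A730020M07Rik. In xINJ muscle both genotypes lay below it for Arg1, Chil3, Pdcd1lg2, Ccl24, Apol7c and A730020M07Rik, so no xINJ fold is given. With all values below the level raised to it, a choice made after seeing the data, the difference was no longer called for Chil3 (0.71, limma adjusted p = 0.675), A730020M07Rik (0.45, 0.463), Apol7c (0.81, 0.144) and Arg1 (1.59, 0.0686). Leaving out 1 day 8 sample at a time, the difference was called in all 11 fits for Pdcd1lg2 (limma adjusted p at most 0.00218) and Col6a5 (at most 0.0358), in 10 for Itgax (0.112 without DTR+ xINJ replicate 1), in 7 for Ccl24 and F10, in 6 for Tarm1, in 5 for Rnase2a, in 4 for Chil3, in 3 for Arg1 and Apol7c, in 2 for A730020M07Rik and in 1 for Otud1. The highest limma adjusted p was 0.201 for Rnase2a and 0.155 for Arg1, both without DTR+ xINJ replicate 1.

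**Figure D2:**
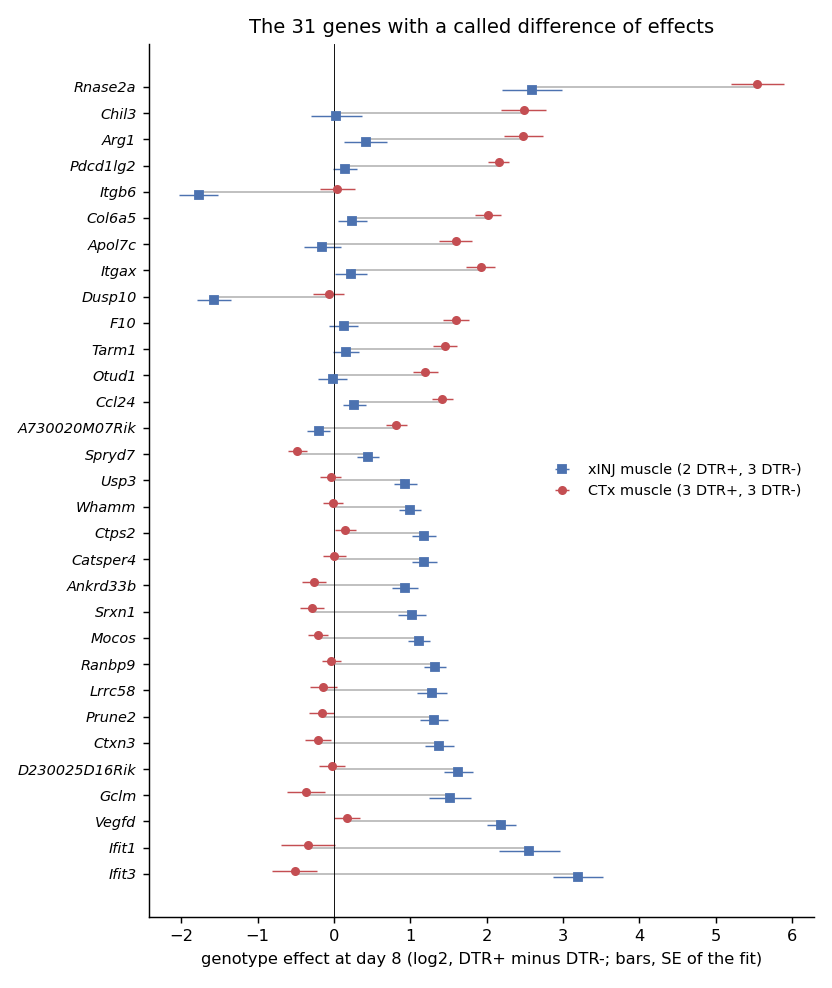
Genotype effect (DTR+ minus DTR-, log2, x axis) in CTx muscle (red circles, 3 against 3 samples) and xINJ muscle (blue squares, 2 against 3 samples) for the 31 genes with a called difference, ordered by it, with SE bars. The red points of the upper genes reach 5.55 for Rnase2a while the blue ones stay near 0 except Rnase2a, Itgb6 and Dusp10, and in the lower genes the blue points reach 3.20 for Ifit3 while the red ones stay within 0.51 of 0.

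Of 8 tested genes on the eosinophil and type 2 list, 5 rose in CTx and 1 in xINJ muscle, and the differences of Rnase2a and Ccl24 were called. The 8 are those of 15 listed genes that passed the filter, 3 of them through the DTR+ CTx day 8 samples alone. Over all 15, tested or not, 13 differences were above 0 with a median of 0.21, against 10718 of the 19752 genes in the table (median 0.02). Ccl11, the chemokine eotaxin, had effects of 1.21 and -0.17 (difference 1.38, limma adjusted p = 0.116), Alox15, a lipoxygenase of eosinophils and macrophages, 0.78 and -0.14, and Gata3, a transcription factor of type 2 T cells, 1.18 and 0.13, none with a called difference. Siglecf, the surface marker of mouse eosinophils, had effects of 0.06 and -0.07, and the cytokine gene Il13 0.07 and 0.03. The list's mean level was 7.80 to 7.89 in DTR+ CTx muscle, 6.4 to 6.61 in DTR- CTx, 6.82 and 6.99 in DTR+ xINJ and 6.48 to 6.71 in DTR- xINJ muscle. Neither difference was called without DTR+ xINJ replicate 1, DTR- CTx replicate 3 or DTR- xINJ replicate 3, and the CTx count of 5 was 3 without DTR+ CTx replicate 3 or DTR- CTx replicate 1 or 2. On the dendritic cell list (13 tested), 5 rose in CTx and 1 in xINJ muscle, with Itgax the single called difference. Ccl17 and Ccl22, chemokines for type 2 and regulatory T cells, had differences of 0.94 and 1.05 that were not called. Of the 13, 2 passed the filter through the DTR+ CTx day 8 samples alone, Ccl22 among them. On the repair and resident macrophage list (22 tested), 6 rose in CTx muscle, 3 rose and 1 fell in xINJ muscle, and the difference of Arg1 alone was called. Mrc1, the mannose receptor, had effects of 1.13 in CTx and 0.70 in xINJ muscle (difference 0.43), the lectin Mgl2 1.95 and 1.26 (0.69), and the scavenger receptor Cd163 0.42 and 0.48 (-0.06), with no difference called. On the inflammatory monocyte list (14 tested), 6 rose in CTx and 3 in xINJ muscle, the median difference was 0.09, and the difference of Chil3 was called while that of Ms4a4c, a membrane protein of monocytes, was -1.10 and not called. Leaving out single samples gave 0 to 2 called differences on the repair list, and the monocyte counts were 2 or 3 in CTx muscle without DTR+ CTx replicate 3 or DTR- CTx replicate 1 or 2 and 0 or 1 in xINJ muscle without either DTR+ xINJ sample or DTR- xINJ replicate 1 or 3. The xINJ count of the repair list was 0 or 1 without DTR+ xINJ replicate 1 or 2 or DTR- xINJ replicate 1. The mean level of macrophage genes was higher in DTR+ samples of both muscles, with a median difference of effects of -0.05 and 0 differences called. The mean over 24 pan macrophage genes was 9.19 to 9.37 in DTR- CTx and 9.98 to 10.11 in DTR+ CTx muscle, against 7.10 to 7.4 and 7.94 to 8.20 in xINJ muscle, and its part in the type 2 differences was not tested.

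Genes of T cells and cytotoxic lymphocytes rose in CTx muscle, and the data did not settle whether they rose less in xINJ muscle. Of 16 tested T cell genes, 13 rose in CTx muscle (median effect 1.16) and 0 in xINJ muscle (median 0.31). Of the 16, 2 passed the filter through the DTR+ CTx day 8 samples alone, and 0 differences were called. Over all 17 listed genes in the table, tested or not, 17 differences were above 0 (median 0.92). Cd8a, which marks cytotoxic T cells, had 6.11, 6.64 and 6.54 in DTR- xINJ, 6.78 and 6.89 in DTR+ xINJ, 6.49, 6.54 and 6.64 in DTR- CTx and 7.70, 8.29 and 8.52 in DTR+ CTx muscle. The genotypes did not overlap in either muscle, though the xINJ effect was not called. Genotypes were likewise apart for 20.7% of all tested genes in CTx and 29.8% in xINJ muscle. The difference for Cd8a was 1.21 with a 95% interval from 0.58 to 1.83 (limma adjusted p = 0.134). Cd3e, a chain of the T cell receptor complex, had a difference of 1.07 (0.276), the chemokine receptor Cxcr6 1.44 (0.17) and the adaptor Lat 1.22 (0.116), with limma adjusted p in brackets. Among 12 cytotoxic genes, 8 rose in CTx and 3 in xINJ muscle, and 0 differences were called, with 3 of the 12 passing the filter through the DTR+ CTx day 8 samples alone. Over all 18 in the table, 18 differences were above 0 (median 0.55). Gzmb, the protease granzyme B, came nearest, with 7.63, 7.96 and 8.35 in DTR+ CTx muscle against 5.47 to 6.25 in the other 8 samples and a difference of 1.49 (95% interval 0.80 to 2.17, limma adjusted p = 0.0759). Without DTR+ CTx replicate 1, 4 T cell differences were called, and the cytotoxic count of 3 in xINJ muscle was 0 without DTR+ xINJ replicate 2 or DTR- xINJ replicate 3. Of the genes named here, Cd8a, Cxcr6 and Gzmb lay below the 40th percentile in all DTR- samples of both muscles. Cxcr6 and Gzmb lay below it in the DTR+ xINJ samples as well, so no xINJ fold is given for them. Cxcr6 was among the T cell genes that passed the filter through the DTR+ CTx day 8 samples alone, so that those samples are its high ones was required.

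The genes that rose in DTR+ xINJ muscle and not in CTx muscle began with Ifit3 and Ifit1, antiviral proteins that bind foreign RNA. Their promoters are shown because both genes and the shared genes described further on are textbook targets of interferon-activated factors. RefSeq sequences (build GRCm38.p6) are the 150 bases before the annotated gene start, 5′ to 3′ on the gene's strand, with capitals where the letters GAAANNGAA, the core of the interferon-stimulated response element, matched on either strand. They lie at chr19:34583379-34583528 (plus strand) and chr19:34640739-34640888 (plus strand).
Ifit3: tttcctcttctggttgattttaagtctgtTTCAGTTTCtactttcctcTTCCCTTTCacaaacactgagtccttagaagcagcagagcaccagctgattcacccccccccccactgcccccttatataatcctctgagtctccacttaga
Ifit1: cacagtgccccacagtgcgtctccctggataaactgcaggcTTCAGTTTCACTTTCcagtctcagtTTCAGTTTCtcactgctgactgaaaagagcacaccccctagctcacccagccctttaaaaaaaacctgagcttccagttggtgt

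Ifit3 had 7.75, 7.35 and 7.59 in DTR- xINJ, 11.52 and 10.01 in DTR+ xINJ, 9.31, 8.94 and 9.23 in DTR- CTx and 8.33, 8.93 and 8.68 in DTR+ CTx muscle. In xINJ muscle both DTR+ samples exceeded all DTR- samples, by 9.19-fold on average (3.20 ± 0.33, SE, limma adjusted p = 1.29e-05). In CTx muscle every DTR+ sample lay below every DTR- sample, by an amount that was not called (-0.51, limma adjusted p = 0.52). Genotypes were apart, in either direction, for 20.7% of all tested genes in CTx and 29.8% in xINJ muscle. The difference of effects, -3.71 ± 0.44 (limma adjusted p = 0.000651), was the most negative of all tested genes. It was called in all 11 fits that leave out 1 sample (limma adjusted p at most 0.00374), with values from -4.47 to -2.96. The DTR- CTx level was itself above the DTR- xINJ level by 1.59 (limma adjusted p = 0.00095). Ifit1 had 7.20, 6.90 and 7.14 in DTR- xINJ, 10.27 and 9 in DTR+ xINJ, 8.46, 8.36 and 8.41 in DTR- CTx and 7.65, 7.71 and 8.85 in DTR+ CTx muscle, where the genotypes overlapped. Its difference of -2.90 ± 0.53 (limma adjusted p = 0.0262) was called in 2 of the 11 fits, with 0.276 the highest limma adjusted p (without DTR+ xINJ replicate 1, the sample with the higher level). Near-identical copies of both genes exist and may share their probes' signal.

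Other type I interferon targets leaned the same way without a called difference. Of 33 tested, 14 rose in xINJ muscle (median 0.65) and 3 in CTx muscle (median 0.06), and all 33 differences were below 0 (median -0.59), of which the 2 Ifit genes were called. Irf7, a transcription factor that amplifies the response, had effects of 0.05 in CTx and 1.93 in xINJ muscle (difference -1.88, limma adjusted p = 0.0572), Usp18, which restrains interferon receptor signalling, 0.12 and 1.87 (-1.75, 0.0738), and Oasl2, a relative of the oligoadenylate synthetases, -0.06 and 1.44 (-1.49, 0.0649). Mx1, an antiviral GTPase, lay below the 40th percentile in both genotypes of both muscles. The list's mean level was 6.98 to 7.11 in DTR- xINJ, 8.20 and 7.87 in DTR+ xINJ, 7.77 to 8.22 in DTR- CTx and 7.84 to 8.55 in DTR+ CTx muscle, so DTR+ xINJ samples lay within the range of the CTx samples. The count of 14 became 4 without DTR+ xINJ replicate 1 and 11 to 13 without any other xINJ sample. The CTx count of 3 was 1 without DTR+ CTx replicate 3 or DTR- CTx replicate 1 or 2. Of the differences, 6 were called without DTR+ CTx replicate 3, 3 without DTR+ xINJ replicate 2, and 1 or 2 without each other sample. Stat2 and Irf9, partners in the factor through which type I interferon acts, rose in xINJ muscle by 1.57 and 1.64, against 0.72 and 0.68 in CTx muscle, where neither was called, and neither difference was called. Many of these targets also respond to interferon gamma, and the list does not separate the cytokines.

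**Figure D3:**
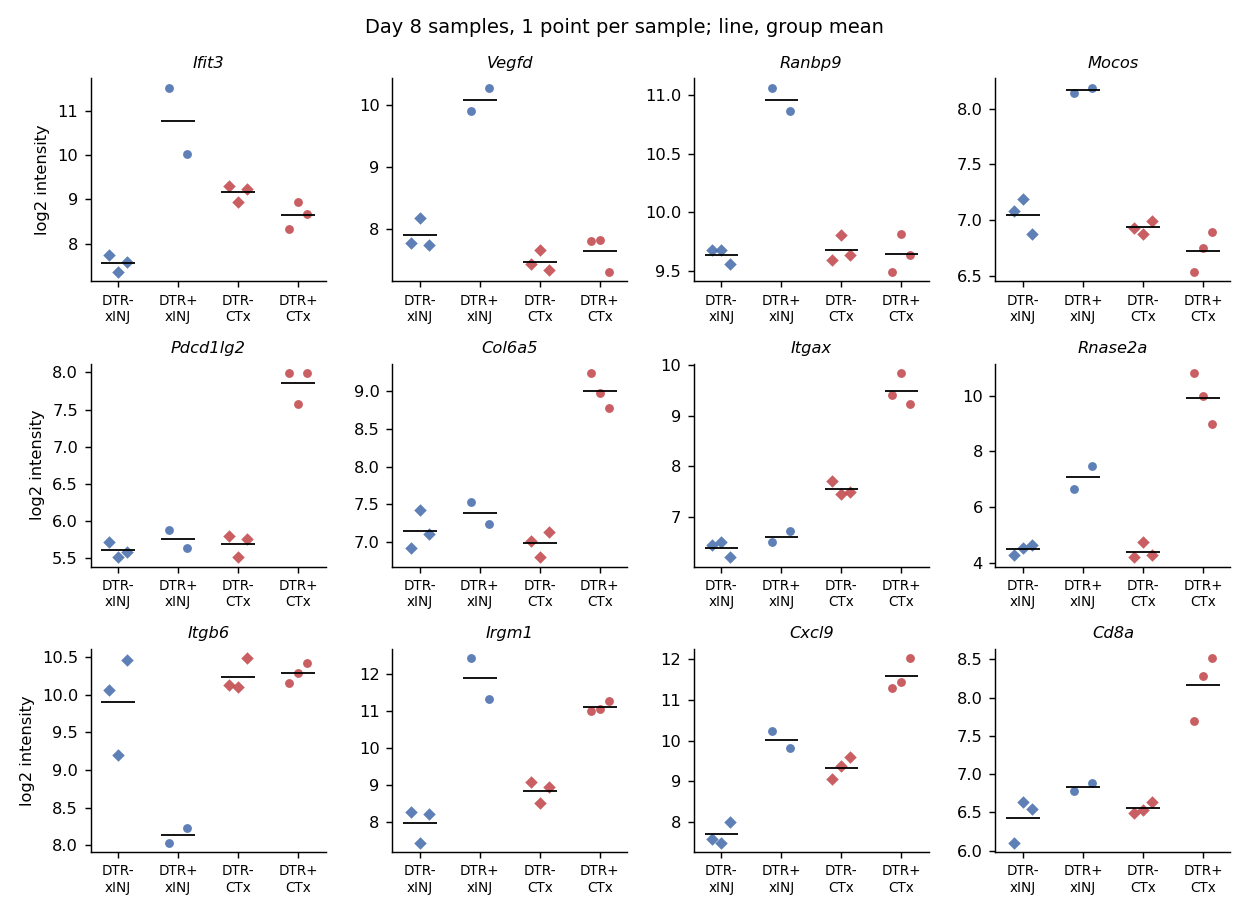
Log2 intensity (y axis, its range set per gene) of 12 genes in the 11 day 8 samples by group (x axis), with 1 point per sample and a line at the group mean. Ifit3, Vegfd, Ranbp9 and Mocos are high in the 2 DTR+ xINJ samples, Pdcd1lg2, Col6a5, Itgax and Rnase2a are highest in the 3 DTR+ CTx samples, Itgb6 is low in DTR+ xINJ muscle, and Irgm1 and Cxcl9 are higher in DTR+ samples of both muscles.

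Vegfd, a growth factor for lymphatic vessels, had the firmest rise outside the interferon genes. It had 7.78, 8.18 and 7.75 in DTR- xINJ, 9.90 and 10.28 in DTR+ xINJ, and 7.31 to 7.83 in the 6 CTx samples. The 2 DTR+ xINJ samples stood above the other 9. Within xINJ muscle, genotypes were apart, in either direction, for 29.8% of all tested genes. The xINJ effect was a 4.56-fold rise and the difference -2.02 ± 0.26 (limma adjusted p = 0.00103), called in all 11 fits that leave out 1 sample. The same held for Ranbp9, a scaffold protein that binds the GTPase Ran, and Mocos, an enzyme that activates the molybdenum cofactor. Ranbp9 had 11.06 and 10.86 in DTR+ xINJ muscle against 9.49 to 9.81 elsewhere, a difference of -1.36 ± 0.19, and Mocos 8.14 and 8.19 against 6.53 to 7.19, a difference of -1.32 ± 0.19 (limma adjusted p = 0.00331 for each). With DTR+ xINJ replicate 1 left out, their limma adjusted p was 0.0498 and 0.0400.

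Gclm and Srxn1 both serve antioxidant defence, Gclm as the regulatory subunit of the enzyme that limits glutathione synthesis and Srxn1 as sulfiredoxin, which restores oxidised peroxiredoxins. Gclm had 9.28, 9.33 and 9.47 in DTR- xINJ, 10.89 and 10.88 in DTR+ xINJ, 8.57, 9.34 and 9.25 in DTR- CTx and 8.33, 9.09 and 8.62 in DTR+ CTx muscle, a difference of -1.89 ± 0.37 (limma adjusted p = 0.0368). Srxn1 had 8.47, 8.41 and 8.55, then 9.43 and 9.57 in the xINJ groups and 7.74 to 8.23 in CTx muscle, a difference of -1.31 ± 0.24 (limma adjusted p = 0.0262). For both genes the DTR+ xINJ samples exceeded all others, and each difference was called in 2 of the 11 fits that leave out 1 sample, with limma adjusted p up to 0.201 and 0.116. In xINJ muscle, genotypes were apart, in either direction, for 29.8% of all tested genes. Further differences below 0 were -1.65 for the uncharacterised D230025D16Rik, -1.60 for Ctxn3 (cortexin 3), -1.47 for Prune2, -1.42 for Lrrc58, -1.19 for Ankrd33b, -1.18 for Catsper4 (a sperm ion channel subunit), -1.03 for Ctps2 (a CTP synthase), -1.01 for Whamm (an actin nucleation factor) and -0.98 for Usp3 (a histone deubiquitinase). These 9 genes rose in xINJ muscle by 0.93 to 1.63, and D230025D16Rik, Ctxn3 and Prune2 kept the call in 10 of the 11 fits, Usp3 in 0 and the other five in 1 or 2. Spryd7 was the exception among genes below 0, since it fell in CTx muscle (-0.48, limma adjusted p = 0.0384) and its xINJ effect of 0.45 was not called.

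Some genes of protein breakdown rose in DTR+ xINJ muscle, none with a called difference. Of 28 genes of the proteasome, the particle that degrades tagged proteins, 7 rose in xINJ and 0 in CTx muscle. All 28 xINJ effects were above 0 (median 0.52), the CTx median was -0.03, and all 28 differences were below 0 (median -0.59) with 0 called. Psmc4, an ATPase of its cap, had 9.97, 9.88 and 9.96 in DTR- xINJ, 10.72 and 10.78 in DTR+ xINJ, 10.10, 10.25 and 10.30 in DTR- CTx and 9.95, 10.13 and 10.14 in DTR+ CTx muscle, a difference of -0.95 (95% interval -1.44 to -0.47, limma adjusted p = 0.122). The mean over the 28 genes was 10.93 and 11 in DTR+ xINJ samples and 10.37 to 10.59 in the other 9. The count of 7 became 1 without either DTR+ xINJ sample and 0 without DTR- xINJ replicate 3, while the median effect stayed between 0.51 and 0.58 in the fits that leave out 1 sample.

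On the atrophy and denervation list (22 tested), 5 genes rose and 1 fell in xINJ muscle and 1 rose in CTx muscle. Trim63, the muscle ubiquitin ligase MuRF1, had 11.19, 11.75 and 10.51 in DTR- xINJ, 13.11 and 12.60 in DTR+ xINJ, 10.24, 10.84 and 10.40 in DTR- CTx and 9.98, 10.62 and 10.84 in DTR+ CTx muscle. It rose in xINJ muscle (1.70) and its CTx effect was -0.01, but the difference of -1.72 had a 95% interval from -2.87 to -0.57 and was not called (limma adjusted p = 0.338). Foxo1 (1.08), the factor that drives muscle ubiquitin ligases, Gadd45a (1.24), Runx1 (1.08) and Eif4ebp1 (1.17) also rose in xINJ muscle, Ky, a fibre protein, fell (-2.36), and Fbxo32, the ligase atrogin-1, had 1.01 and was not called. Of 20 autophagy genes, 4 rose in xINJ (Bnip3 0.91, Map1lc3b 0.68, Ctsl 0.92 and Depp1 1.99) and 0 in CTx muscle, with 0 differences called. Without either DTR+ xINJ sample or DTR- xINJ replicate 1 or 3, the atrophy count of 5 became 1 and the autophagy count of 4 became 0 to 2. Some genes of stress hormones and inflammation rose in xINJ muscle as well. The metallothioneins Mt1 and Mt2 rose in xINJ muscle by 1.64 and 1.97, against 0.46 and 0.14 in CTx muscle, as 2 of 21 tested genes of the glucocorticoid and fasting list (0 without DTR+ xINJ replicate 2 or DTR- xINJ replicate 3), and 3 of 11 acute phase genes rose there, among them the iron-binding Lcn2 (1.51), and 1 without DTR+ xINJ replicate 2. In CTx muscle 2 of the 11 acute phase genes rose (0 to 3 when 1 sample was left out). The acute phase medians were 0.66 in CTx and 0.59 in xINJ muscle, with 11 and 8 of the 11 effects above 0. Of their differences, 0 were called. The part of stress hormone and inflammation genes in the rise of breakdown genes was not tested.

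**Figure D4:**
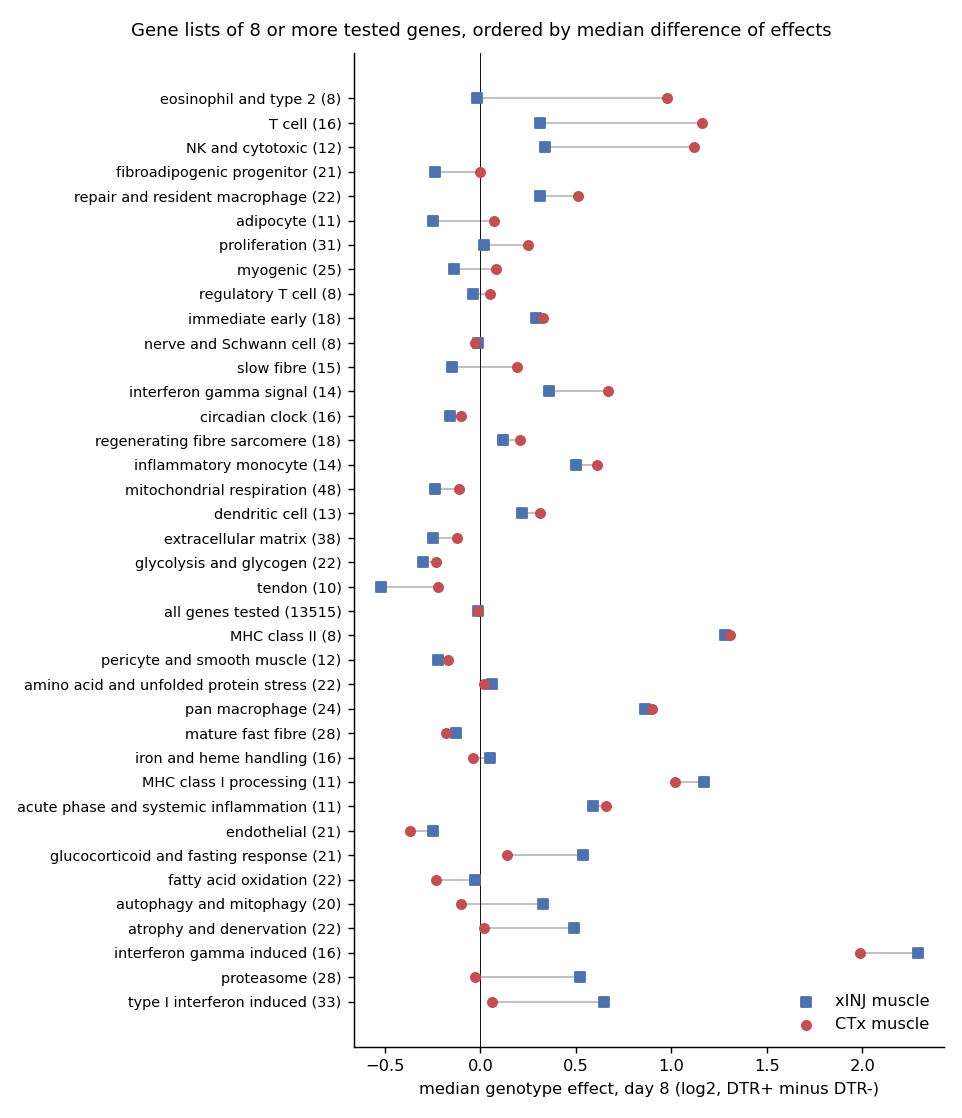
Median genotype effect (DTR+ minus DTR-, log2, x axis) of the tested members of each gene list with 8 or more of them (number in brackets) in CTx muscle (red circles) and xINJ muscle (blue squares), ordered by the median difference of effects. Eosinophil, T cell and cytotoxic lists lie at the top with larger CTx medians, type I interferon and proteasome lists at the bottom with larger xINJ medians, and interferon gamma targets and both antigen presentation lists have medians above 1 in both muscles.

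Itgb6 and Dusp10 were the 2 genes whose difference came from a fall in DTR+ xINJ muscle. Itgb6, an integrin subunit, had 10.06, 9.20 and 10.46 in DTR- xINJ, 8.04 and 8.23 in DTR+ xINJ and 10.10 to 10.49 in the 6 CTx samples, a difference of 1.82 ± 0.34 (limma adjusted p = 0.0262). Dusp10, a phosphatase that inactivates stress kinases, had 9.99, 9.63 and 10.60, then 8.34 and 8.66 in xINJ muscle, and 10.18 to 10.44 in CTx muscle, a difference of 1.5 ± 0.31 (limma adjusted p = 0.0482). In both, the DTR+ xINJ samples lay below all others, and the call was kept in 3 and 1 of the 11 fits that leave out 1 sample. Within xINJ muscle, genotypes were apart, in either direction, for 29.8% of all tested genes. A few fibre genes fell in xINJ muscle. Of 28 mature fast fibre genes, 3 fell in xINJ muscle (Casq1, the calcium store of fibres, by 0.84, with Sypl2 and Clcn1) and 0 in CTx muscle, and 0 differences were called. The list medians were -0.13 in xINJ and -0.18 in CTx muscle, with 4 and 1 of the 28 effects above 0. Of the 28 differences, 11 were above 0 (median -0.07). Without DTR+ xINJ replicate 1 or 2, or DTR- xINJ replicate 1 or 3, the count of 3 was 0 or 1. Actc1, the cardiac actin of new fibres, fell in xINJ muscle (-0.99) and had -0.08 in CTx muscle, on a regenerating sarcomere list in which 12 of 18 xINJ effects were above 0 (median 0.12). Scd1, a fatty acid desaturase, fell by 1.53 there and had 0.15 in CTx muscle, without called differences. Ckm, the creatine kinase of fibres, lay between 13.51 and 13.98 in the 11 samples.

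The general effect, present in both muscles, was led by interferon gamma targets. Both effects were called with one sign for 101 genes (0.747%), 85 higher (0.629%) and 16 lower (0.118%), and for 100 of them the difference of effects was not called, Rnase2a being the exception. The 84 shared higher genes had median effects of 1.32 in CTx and 1.25 in xINJ muscle and a median difference of -0.10, with 50 of the 84 differences below 0. A difference that was not called does not show equal effects. For 44 of the 84 the 95% interval lay within 1 log2 unit of 0, and for 40 it reached beyond. The largest shared mean effects were those of Gm12185, Iigp1, Retnla, Cd274, Gm12250, Irgm1, Gbp7 and Gm4841, of which Irgm1, Iigp1, Gm12185, Gm12250 and Gm4841 belong to or resemble the interferon-inducible GTPases that attack microbes inside cells, a family with near-identical copies.

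Irgm1 had 8.26, 7.44 and 8.20 in DTR- xINJ, 12.44 and 11.33 in DTR+ xINJ, 9.09, 8.51 and 8.95 in DTR- CTx and 11.01, 11.05 and 11.28 in DTR+ CTx muscle. It rose by 3.92 in xINJ and 2.26 in CTx muscle, and the difference of -1.66 was not called (95% interval -2.44 to -0.87, limma adjusted p = 0.0851). Cd274, which encodes the inhibitory ligand PD-L1, rose by 4.16 and 2.39, with 7.83, 7.44 and 8.23 in DTR- xINJ, 12.66 and 11.32 in DTR+ xINJ, 8.37, 7.88 and 8.09 in DTR- CTx and 10.03, 10.20 and 11.25 in DTR+ CTx muscle (difference -1.77, limma adjusted p = 0.17). PD-L1 thus rose in both muscles where the other PD-1 ligand, Pdcd1lg2, rose in CTx muscle with a called difference. Cxcl9, a T cell attracting chemokine, had nearly equal effects of 2.32 in xINJ and 2.24 in CTx muscle, and its difference of -0.08 had a 95% interval from -1 to 0.83. Gm12185 rose at least 10.8-fold in xINJ muscle, its DTR- samples all lying below the 40th percentile.

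Promoters were also searched for letters bound by interferon-activated factors. The sequences of Irgm1 (chr11:48871421-48871570, minus strand), Cd274 (chr19:29367288-29367437, plus strand) and Irf1 (chr11:53769864-53770013, plus strand) are shown beside the Ifit pair because these genes rose in both muscles. Irf1, the transcription factor first induced by interferon gamma, has capitals at a match of TTCNNNGAA, the gamma-activated site, and the others at GAAANNGAA. RefSeq holds another Irf1 start, whose stretch at chr11:53770323-53770472 (plus strand) has 0 matches of TTCNNNGAA and is not shown.
Irgm1: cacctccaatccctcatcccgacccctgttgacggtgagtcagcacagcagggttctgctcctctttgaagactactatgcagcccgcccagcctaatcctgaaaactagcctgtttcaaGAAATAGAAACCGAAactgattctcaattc
Cd274: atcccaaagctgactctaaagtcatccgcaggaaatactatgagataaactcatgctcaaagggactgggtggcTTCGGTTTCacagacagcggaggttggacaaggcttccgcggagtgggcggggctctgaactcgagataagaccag
Irf1: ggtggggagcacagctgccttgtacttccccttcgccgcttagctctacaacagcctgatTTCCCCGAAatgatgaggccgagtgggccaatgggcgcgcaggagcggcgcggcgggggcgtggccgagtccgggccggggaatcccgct

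Both strands were searched in the 250 bases before each annotated start, and matches of different motifs may overlap. GAAANNGAA was found in 16 of the 56 shared higher genes with a promoter sequence (28.6%), in 4 of the 12 genes with a difference above 0 and in 2 of the 15 with a difference below 0, the 2 being Ifit1 and Ifit3, against 794 of 10729 tested genes (7.4%). TTCNNNGAA was found in 10 of 56 (17.9%), 2 of 12 and 0 of 15, against 7.05% of tested genes. GTAAACA, the forkhead core, was found in 1 of 56, 1 of 12 and 0 of 15 (2.67% of tested genes). TGTTCT, only a part of the glucocorticoid receptor's recognition element, was found in 14 of 56, 3 of 12 and 2 of 15 (13.2%). TGACNNNGC, the antioxidant response core, was added after Gclm and Srxn1 had been seen and was found in 7 of 56, 4 of 12 and 2 of 15 (13.7%). Genes that fell in both muscles also held such letters. Of the 11 shared lower genes with a promoter sequence, GAAANNGAA was found in 2 (18.2%) and TTCNNNGAA and GTAAACA in 0. In the same 11, TGTTCT was found in 4 (36.4%) and TGACNNNGC in 3 (27.3%). A match describes letters, not a bound site.

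The interferon gamma pathway as a whole was described by role. Of the signalling genes (14 tested), 7 rose in CTx (3 without DTR+ CTx replicate 3 or DTR- CTx replicate 1) and 5 in xINJ muscle, and 0 differences were called. Ifng itself, the ligand, had 6.97, 6.96 and 7.08 in DTR+ CTx muscle against 6.24 to 6.56 in DTR- CTx, a rise of 0.65, and 5.99 to 6.61 in the 5 xINJ samples, below the 40th percentile, with an effect of 0.04. Its difference of 0.61 was not called (95% interval 0.13 to 1.10). Ifng passed the filter through the DTR+ CTx day 8 samples alone, so that they are the high ones was required. Every DTR- CTx sample lay below the 40th percentile, and against that level the CTx rise was at least 1.27-fold. Irf1 rose in both muscles, by 2.03 and 2.25. Ciita, the switch for MHC class II genes, rose by 1.25 in CTx muscle and had 0.38 in xINJ muscle (difference 0.88, limma adjusted p = 0.138). Of 16 tested targets, 13 rose in each muscle and 12 in both, with median effects of 1.99 in CTx and 2.29 in xINJ muscle and 0 called differences. Only 3 of the 16 differences were above 0, with a median of -0.51, beside -0.59 for the type I interferon list. That median lay between -0.81 and -0.34 when 1 sample was left out. These targets thus also leaned towards the larger effect in xINJ muscle. The mean level of the targets was 6.95 to 7.26 in DTR- xINJ, 9.25 and 9.61 in DTR+ xINJ, 7.74 to 7.94 in DTR- CTx and 9.34 to 9.81 in DTR+ CTx muscle. The DTR+ samples of the muscles thus lay in overlapping ranges above different DTR- levels.

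Antigen presentation followed. Among 11 genes of MHC class I processing, 9 rose in CTx and 11 in xINJ muscle (medians 1.02 and 1.17), led by the peptide transporter subunit Tap1 with 1.88 and 2.69. The inducible proteasome subunits Psmb8, Psmb9 and Psmb10 rose by 1.61, 1.38 and 1.78 in CTx and by 1.17, 1.39 and 1.70 in xINJ muscle, while the constitutive subunits described above had a CTx median of -0.03. Of 8 MHC class II genes, 6 rose in CTx and 5 in xINJ muscle (medians 1.31 and 1.28), with H2-Ab1 at 1.32 and 1.68. Pan macrophage genes rose in both, 14 of 24 in CTx and 11 in xINJ muscle (medians 0.90 and 0.86). Adgre1 rose by 0.76 and 0.78 and its difference of -0.01 had a 95% interval from -0.55 to 0.52. No difference was called on these lists. Without DTR+ xINJ replicate 1 the xINJ counts were 2 of 11 for class I, 4 of 8 for class II and 4 of 24 for macrophages, and without replicate 2 they were 9, 2 and 3, in the same order, while the medians stayed between 0.70 and 1.59. The class I count was 7 without DTR- xINJ replicate 1, and the macrophage count was 5 without that sample and 4 without DTR- xINJ replicate 3. In CTx muscle the macrophage count was 7 without DTR+ CTx replicate 3 or DTR- CTx replicate 2 and 8 without DTR- CTx replicate 1.

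**Figure D5:**
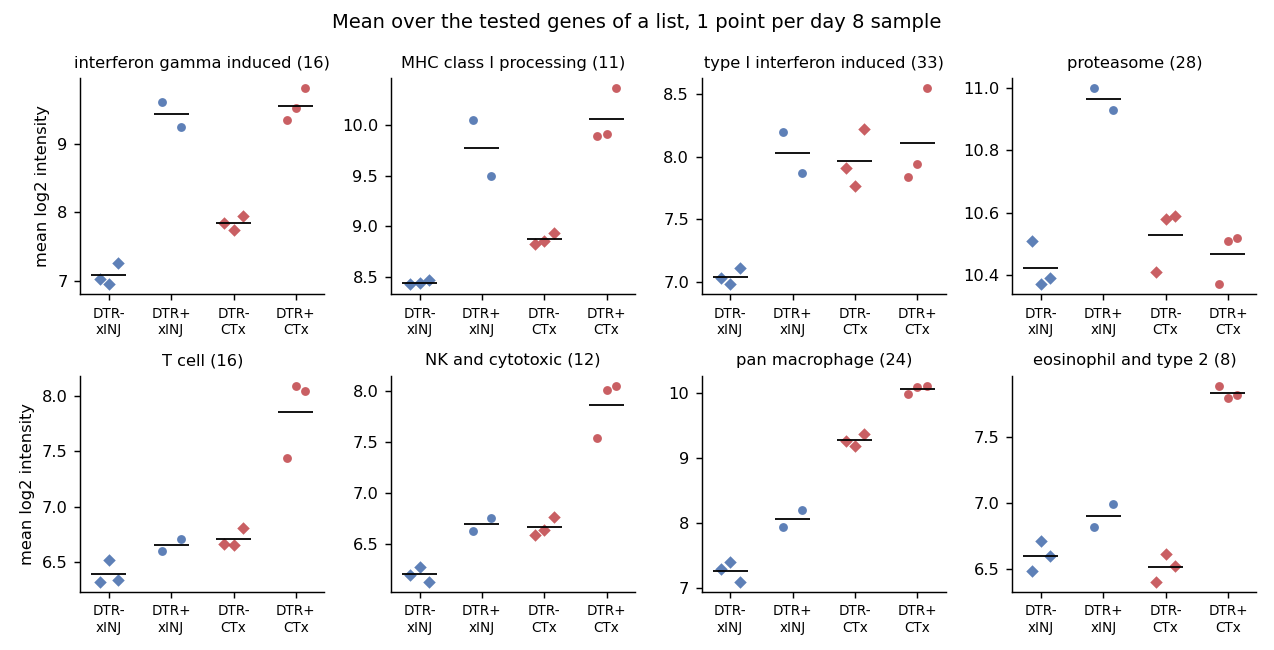
Mean log2 intensity (y axis, its range set per list) over the tested members of 8 gene lists in the 11 day 8 samples by group (x axis), with 1 point per sample and a line at the group mean. Interferon gamma and class I genes are higher in DTR+ samples of both muscles, type I interferon and proteasome genes differ between genotypes mainly in xINJ muscle (proteasome 10.93 and 11 against 10.37 to 10.51), and T cell, cytotoxic and eosinophil genes are highest in DTR+ CTx muscle.

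The 16 shared lower genes fell by a median of 0.78 in CTx and 0.96 in xINJ muscle, and 14 of the 16 differences were above 0. Those with the largest mean falls were Nrep, Map2k6, Igfbp5, Aqp4, Lum, Rasgrp3, Carns1 and Eml1. Aqp4, the water channel of fast fibres, had 8.50, 7.71 and 8.71 in DTR- xINJ, 6.79 and 7.02 in DTR+ xINJ, 8.64, 8.59 and 8.31 in DTR- CTx and 7.63, 7.14 and 7.27 in DTR+ CTx muscle. The genotypes did not overlap in either muscle, where 20.7% (CTx) and 29.8% (xINJ) of all tested genes had no overlap. The difference of 0.23 had a 95% interval from -0.57 to 1.03. Map2k6, a kinase that activates p38, fell by 1.52 in CTx and 1.47 in xINJ muscle, and Lum, the matrix proteoglycan lumican, by 1.21 and 1.23. Nrep, a small neuronal protein, fell by 1.15 and 2.45, and its difference of 1.30 was not called (95% interval 0.41 to 2.20). Igfbp5, a binding protein of insulin-like growth factors, fell by 0.99 and 1.76, and Carns1, which makes carnosine in fibres, by 0.75 and 0.99.

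Several other lists, of cell types and of processes, gave no call in either muscle or in the difference. These were the lists of B and plasma cells (6 tested), mast cells (5), nerve and Schwann cells (8), red blood cells (2), proliferation (31), mitochondrial respiration (48) and the circadian clock (16). Of the 48 respiration effects, 8 were above 0 in CTx and 1 in xINJ muscle (medians -0.11 and -0.24). Of the 31 proliferation effects, 29 were above 0 in CTx and 17 in xINJ muscle, and 27 differences were above 0 (median 0.28). Regulatory T cell genes (8 tested) gave 1 rise in CTx muscle, Tnfrsf18, a receptor also carried by activated T cells (0.63), and 0 in xINJ muscle. Myogenic genes (25) gave 2 rises in CTx and 0 in xINJ muscle, among them Myog, which drives myoblast differentiation, with effects of 1.06 and 0.52. Regenerating fibre sarcomere genes (18) gave 4 rises (0 without DTR+ CTx replicate 3, and 1 or 2 without DTR+ CTx replicate 2 or any DTR- CTx sample) and 1 fall in CTx and 1 fall in xINJ muscle. Extracellular matrix genes (38) gave 1 rise and 2 falls in CTx and 3 falls in xINJ muscle (0 or 1 without either DTR+ xINJ sample or DTR- xINJ replicate 1 or 3), Col1a2 by 0.87. None of these lists held a called difference.

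The earlier day allowed values but no test, because DTR+ xINJ muscle at day 4 is 1 sample and 1 DTR- xINJ sample titled day 4 carries a time tag of day 8. At day 4 the difference had the day 8 sign for 18 of the 31 genes (58.1%), against 48.1% of all tested genes. Ifit3 had 9.06 in the DTR+ xINJ sample and 7.62 to 7.87 in DTR- xINJ muscle, with 9.10 and 10.21 in DTR+ CTx and 10.32 to 10.51 in DTR- CTx muscle, a difference of -2.06. Ifit1 had -2. Vegfd (-0.10), Pdcd1lg2 (0.29) and Col6a5 (0.14) were near 0, and Arg1 (-0.55) and Gclm (0.45) had the other sign.

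The number of called differences depended on single samples. It was 7 without DTR+ xINJ replicate 1 and 17 without replicate 2, the 2 samples on which that group rests. It was 13 to 24 without a DTR- xINJ sample, 14 or 15 without a DTR- CTx sample, and 29, 17 and 31 without DTR+ CTx replicates 1, 2 and 3. Ifit3, Pdcd1lg2, Vegfd, Col6a5, Ranbp9 and Mocos were called in all 11 of these fits and the other 25 genes lost the call in at least 1. The sign of the difference was kept for all 31 genes in every one of them. The genotype effect in xINJ muscle was called for 90 genes without DTR+ xINJ replicate 1 and 153 without replicate 2, and for 177 and 131 without DTR- xINJ replicates 1 and 3, in place of 346. In CTx muscle it was called for 266 genes without DTR+ CTx replicate 3 and for 277 and 291 without DTR- CTx replicates 1 and 2, in place of 491. The 101 genes called in both were 45 and 55 without DTR+ xINJ replicates 1 and 2, 63 and 57 without DTR- xINJ replicates 1 and 3, and 65 and 63 without DTR- CTx replicates 1 and 2. The 900 genes called in the mean effect were 515 and 541 without DTR+ xINJ replicates 1 and 2 and 576 without DTR- xINJ replicate 3.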

How the data were processed

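Muscle RNA was measured on Mouse Gene ST arrays from Affymetrix. The authors deposited linear intensity values for 24922 probe sets in 21 samples, which the submitters' processing notes credit to RMA in Affymetrix Power Tools, with versions and genome build not given in the sources used here. Intensities were converted to log2. Probe sets took the gene symbol of the platform annotation (21425 with 1 symbol, 1399 with several and 2098 with none listed), and the brightest stood for a gene (19752 genes). The 13515 genes above the 40th percentile of the array on at least 2 arrays were tested with limma 3.58.1 in R 4.3.3, with 9 group means over all 21 samples, 12 residual degrees of freedom and Benjamini-Hochberg adjustment over all tested genes at 0.05. The procedure was tested on simulated data. Precision is limited by how many arrays there are.

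Each sample's group was read from its title. Named genes were the 31 with a called difference, the shared genes with the largest mean effects (8 each way) and members of 41 gene lists (785 of 861 entries matched). Members and lists were chosen with earlier results of these data known. Some list members are not reported here. Deviations of same-numbered CTx and xINJ samples correlated at r 0.06, 0.01 and 0.34 in DTR- and at 0.31 and 0.30 in DTR+. Those of differently numbered samples correlated at -0.35 to 0.19 in DTR- and at -0.31 to 0.07 in DTR+. With 2 DTR+ xINJ samples, their deviations from the group mean are exact opposites. The DTR+ values of 0.31 and 0.30 therefore have -0.31 and -0.30 as mirror images by construction, not as a separate comparison. A random replicate block over all samples gave a correlation of 0.187. The labels do not state that numbers mark pairs, so the main fit did not pair samples, and pairing is not excluded. Other normalizations, filters, sample sets and each sample left out were tried.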

Additional observations from a re-analysis of the deposited data

Results flagged for a closer look

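For 31 genes the genotype effect at day 8 differed between CTx and xINJ muscle by limma's test of the difference itself. The difference of effects, CTx minus xINJ on the log2 scale, was above 0 for Rnase2a (2.95), Chil3 (2.45), Arg1 (2.07), Pdcd1lg2 (2.01), Itgb6 (1.82), Col6a5 (1.78), Apol7c (1.75), Itgax (1.70), Dusp10 (1.5), F10 (1.47), Tarm1 (1.30), Otud1 (1.22), Ccl24 (1.15) and A730020M07Rik (1.02). It was below 0 for Spryd7 (-0.92), Usp3 (-0.98), Whamm (-1.01), Ctps2 (-1.03), Catsper4 (-1.18), Ankrd33b (-1.19), Srxn1 (-1.31) and Mocos (-1.32). It was also below 0 for Ranbp9 (-1.36), Lrrc58 (-1.42), Prune2 (-1.47), Ctxn3 (-1.60), D230025D16Rik (-1.65), Gclm (-1.89), Vegfd (-2.02), Ifit1 (-2.90) and Ifit3 (-3.71). No explanation was tested.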

How the results depend on the processing

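The 31 genes kept the sign of their difference in every setting that tested them (26 of the 31 with the filter at the 60th percentile). Other results did turn. Without DTR+ CTx replicate 1 most called differences lay above 0 (22 against 7), without DTR- xINJ replicate 2 the xINJ calls were 211 higher and 222 lower, and differences that were not called changed sign when 1 sample was left out, such as Irf1 (-0.65 to 0.22), Cxcl9 (-0.31 to 0.12) and the MHC class I median (-0.42 to 0.12). Leaving out 1 sample at a time gave 7 to 31 called differences (2 to 22 above 0 and 5 to 19 below 0), 266 to 517 CTx effects, 90 to 433 xINJ effects, 515 to 1109 mean effects and 45 to 108 genes called in both muscles. With the DTR- xINJ sample of doubtful day placed at day 8 there were 57 differences, 36 of them below 0, and 595 xINJ effects. Fitting the 11 day 8 samples alone gave 156 genes called in both muscles. Centring arrays on their median gave 27 differences below 0, and the filter at the 60th percentile gave 8 above 0. Raising dim values to the filter level, chosen after seeing the data, gave 22 above 0. With the replicate number as a fixed replicate block in the day 8 samples there were 138 differences (46 above 0 and 92 below 0), and as a random replicate block 73 (32 and 41), but the numbers are not known to pair the samples, and genotype effects could not be fitted under the fixed block. Under quantile normalization 26 of the 31 were called. The causes were not tested. For single genes, 4171 values kept their side of the threshold, 211 lost the call and 67 gained it. Only the 31 called genes could lose a call, and the 4171 also count named genes that were not called. The 4171 is therefore no measure of how stable the 31 calls were. With 2 DTR+ xINJ samples the xINJ effect is the less precise, and genes under the filter level in both genotypes give no fold.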
